A study of Mus musculus with 6 samples.

Results

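Regulators of G protein signalling (RGS proteins) were examined after forskolin treatment of hepatic stellate cells, which are the pericytes of the mouse liver sinusoid and its store of vitamin A. The 10 genes described are Rgs2, Rgs3, Rgs4, Rgs5, Rgs10, Rgs12, Rgs14, Rgs16, Rgs17 and Rgs19, a named list matched by symbol among the 24940 genes of the deposited table. Of these, 9 had enough counts to pass the filter for testing and Rgs14 did not. The table held 11 further genes named Rgs with a number. Cells were isolated from wild-type female C57BL/6JBomTac mice, and 2 days later either 5 µM forskolin, which directly activates adenylyl cyclase, the enzyme that makes cAMP, or an equal volume of the solvent DMSO was put into the medium for 3 h. Polyadenylated RNA was sequenced from 3 libraries per group, named A, B and C. The labels give no mouse age, no disease model, and no statement of whether the libraries came from separate mice or cultures, so the p-values measure the spread between these libraries, which may be technical. In bulk RNA, fewer cells of a type and less RNA per cell cannot be told apart.

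An RGS protein ends a G protein signal. A receptor loads the alpha subunit of its G protein with GTP, and the RGS domain speeds the hydrolysis of that GTP, which returns the alpha subunit to its resting state. The R4 subfamily (here Rgs2, Rgs3, Rgs4, Rgs5 and Rgs16) consists of mostly small proteins that act on Gi and Gq subunits, with Rgs2 selective for Gq. Members of the R12 subfamily (Rgs10, Rgs12 and Rgs14) act on Gi and Go, and those of the RZ subfamily (Rgs17 and Rgs19) act on Gi, Go and Gz. In stellate cells, Gq and Gi receptors for endothelin, angiotensin, sphingosine 1-phosphate and other ligands drive contraction and migration.

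Of the 10 genes, 1 rose and none fell. Rgs2 went from near the detection limit to a level of the same order as the other well-expressed RGS genes, while Rgs5, Rgs12, Rgs16 and Rgs19, the most abundant RGS messages of the untreated cells, did not pass the test. In a fit across 12233 genes with edgeR's quasi-likelihood test, a gene was called at a Benjamini-Hochberg adjusted p under 0.05, and 2.22% of all tested genes were called higher and 0.572% lower. At an unadjusted p under 0.05 the count among the 9 tested RGS genes was 2, Rgs2 and Rgs4, against 1477 of the 12233. Their median log2 fold change was -0.06, beside 0.00495 for all tested genes. All 3 forskolin libraries lay above all 3 DMSO libraries for Rgs2, Rgs4, Rgs5 and Rgs10, and for none of the 9 did they lie below. Over all tested genes such a separation was seen upward in 10.7% and downward in 9.46%. Rgs2 and Rgs4, scarce with DMSO, passed the filter on low counts through their forskolin libraries. Rgs14, with counts only in DMSO libraries, did not pass it. The numbers of listed genes above and below are therefore a description of the genes the filter let through.

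**Figure D1:**
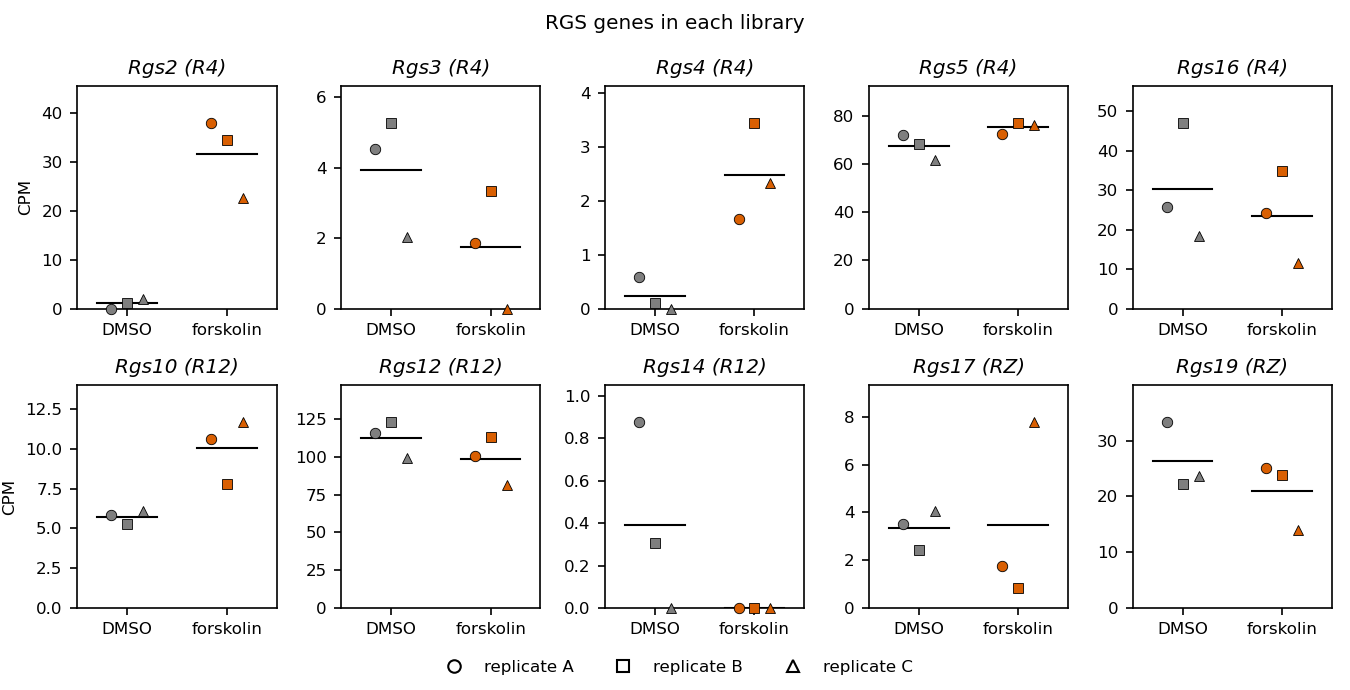
Normalised counts (CPM, on TMM-scaled library sizes) of the 10 RGS genes in each library, one panel per gene with its own axis from 0. Circles, squares and triangles are replicates A, B and C and bars are group means. Rgs2 stood at 22.5 to 37.9 CPM in the forskolin libraries and at 0 to 2.03 CPM in the DMSO libraries.

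The libraries held 2770628.5 to 10607997 counts, and both C libraries were the shallowest of their group. A count of 3, the limit a count of 0 allows, equals 0.279 to 1.17 CPM (counting error only). In the C libraries 76.5% and 79.8% of the values between 0.5 and 12 were multiples of 3, against 28.3% to 41.1% in the others, so low counts there come in coarse steps. Summed over their markers, stellate cell genes gave 1631 to 1826 CPM with DMSO and 1690 to 2019 CPM with forskolin, and of the 12, all tested, Hand2 and Hgf were called higher. Lrat, another of them, lay lower without overlap, at 5.39 to 7.61 CPM with forskolin and 8.61 to 12.2 CPM with DMSO. Its log2 fold change of -0.57 did not pass (edgeR adjusted p = 0.647). Markers of vascular smooth muscle, a cell type that also expresses Rgs5 and Rgs4, summed to 376 to 582 CPM and 415 to 569 CPM. Of these 7 markers 4 were tested and 0 called. The sum cannot tell smooth muscle cells from stellate cells that express the same genes. Of the remaining marker lists, hepatocyte and macrophage markers stood apart between the groups, in opposite directions. Hepatocyte markers summed to 19.8 to 27.7 CPM with DMSO and 51.4 to 65.6 CPM with forskolin. Trf (transferrin) was the 1 called gene among them, higher with forskolin, and without it they summed to 5.87 to 7.77 and 4.70 to 18.8 CPM. Macrophage markers summed to 18.7 to 22.6 CPM with DMSO and 13.8 to 18.5 CPM with forskolin, with none called. Endothelial, cholangiocyte, portal and mesothelial, and lymphocyte and platelet lists each summed to 43.9 CPM or less in every library, and Thy1, Upk3b, Gpm6a, Krt7, Nkg7, Ms4a1 and Ppbp had no count. What other cell types contributed to the RGS values was not tested.

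The sequence in front of Rgs2 and Rgs4, the 2 listed genes with the largest log2 fold changes, is shown. Both hold, on each strand, the core TGACG of the cAMP response element. That element is bound by CREB, which protein kinase A activates when cAMP rises. These 2 genes were picked for display with their values and motifs known. The sequences are RefSeq's (build GRCm38.p6) and run over the 250 bases before the annotated start, on the gene's own strand. Capitals mark the core, written TGACG where it lies on the gene's strand and CGTCA where it lies on the opposite strand. The Rgs2 stretch is chr1:144004150-144004399, minus strand, the Rgs4 stretch is chr1:169747643-169747892, minus strand, and the Rgs5 stretch, chr1:169655251-169655500, plus strand, is given as one without the core.
Rgs2: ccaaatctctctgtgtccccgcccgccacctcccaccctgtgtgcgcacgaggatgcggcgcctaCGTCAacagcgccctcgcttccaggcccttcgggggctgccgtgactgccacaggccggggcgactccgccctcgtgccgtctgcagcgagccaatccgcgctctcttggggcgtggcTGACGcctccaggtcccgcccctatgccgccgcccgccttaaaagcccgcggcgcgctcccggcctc
Rgs4: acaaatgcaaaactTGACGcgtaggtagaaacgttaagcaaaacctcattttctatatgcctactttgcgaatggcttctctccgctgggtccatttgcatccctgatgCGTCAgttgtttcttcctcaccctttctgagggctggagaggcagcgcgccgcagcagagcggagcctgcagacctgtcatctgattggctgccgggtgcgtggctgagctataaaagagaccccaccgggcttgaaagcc
Rgs5: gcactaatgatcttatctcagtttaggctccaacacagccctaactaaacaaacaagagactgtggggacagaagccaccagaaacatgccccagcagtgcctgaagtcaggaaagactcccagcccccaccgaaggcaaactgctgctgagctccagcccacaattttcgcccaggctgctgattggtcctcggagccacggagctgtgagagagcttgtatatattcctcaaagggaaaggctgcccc
Counted back from the start, the core lies in Rgs2 at position -67 on the gene's strand and at position -185 on the other. Rgs4 has it at position -236 on its own strand and at position -141 on the other, and TATAAA at position -31. In windows of 300 bases, which also take in the first 50 bases of the transcript, the core was found in 3 of the 13 windows of the 9 RGS genes that have one, the other being 1 of the windows of Rgs12, at position -82. Of all 32851 RefSeq windows of this length 20.8% hold the core, and 5.01% hold it at least 2 times, as those of Rgs2 and Rgs4 do. The full element TGACGTCA, in 1.79% of all windows, and the NR4A monomer site AAAGGTCA, in 1.51%, were in none of the 13. The AP-1 site TGANTCA, in 7.81% of all windows, was in Rgs12 and Rgs17. TATAAA was in Rgs3 and Rgs4 and in 13.6% of all windows. Each motif was searched on both strands, and the TGACG count includes any TGACGTCA. A match describes letters only, and the absence of one says only that these letters are not in this window. Rgs12, with the core in 1 window, had a log2 fold change of -0.19. Rgs10, whose groups stood apart, had no core in its window. Whether the core bears on any of these changes was not tested.

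Rgs2, the Gq-selective member of the R4 subfamily, lies on chromosome 1 (mm10, chr1:143999338-144004149, minus strand). Its counts were 363.5, 370.5 and 58.5 in forskolin A, B and C and 0, 12 and 6 in DMSO A, B and C. These equal 37.9, 34.4 and 22.5 CPM against 0, 1.22 and 2.03 CPM. Every forskolin library was far above every DMSO library, and the shallow C pair showed the same direction as the deep pairs. The mean rose from 1.08 ± 1.02 to 31.6 ± 8.06 CPM (SD, n = 3), a fitted log2 fold change of 5.07 ± 0.62 (SE), or 33.7-fold with a 95% interval of 12.9 to 87.8 (edgeR adjusted p = 0.00117). The size rests on few DMSO counts, 18 in all, and moved with the library and the tool: the log2 fold change was 4.43 without DMSO A, the library at 0, and 5.98 and 6.35 by limma-voom without and with sample quality weights. All 3 DMSO values are multiples of 3, and with every count divided by 3, a setting added after the data were seen, the log2 fold change was 5.11 (adjusted p = 4.63e-05).

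Rgs4, an R4 protein that acts on Gi and Gq subunits, was scarce (chr1:169741477-169747642, minus strand). Its counts were 16, 37 and 6.5 with forskolin and 4, 1 and 0 with DMSO, that is 1.67, 3.44 and 2.33 CPM against 0.583, 0.101 and 0 CPM. The groups did not overlap, and the forskolin counts summed to 59.5 against 5. The log2 fold change of 3.21 ± 1.13 had a wide 95% interval, 0.70 to 5.72, and did not pass (unadjusted p = 0.0173, edgeR adjusted p = 0.249). By edgeR's likelihood ratio test its adjusted p was 0.0119.

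Rgs5, a marker of pericytes and vascular smooth muscle that acts on Gi and Gq, had one of the highest and steadiest RGS levels (chr1:169655501-169695813, plus strand). It was at 72.3, 77.0 and 76.2 CPM in forskolin A, B and C and at 72.1, 68.2 and 61.7 CPM in DMSO A, B and C. The groups lay side by side without overlap, with a gap that is small beside the range within each. The log2 fold change was 0.15 ± 0.13 (95% interval -0.13 to 0.44, edgeR adjusted p = 0.76), so a rise of the size seen for Rgs2 lies far outside the interval.

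Rgs16, another R4 protein for Gi and Gq subunits (chr1:153740353-153745468, plus strand), varied more between replicates than between groups. Its levels were 24.3, 34.8 and 11.7 CPM with forskolin and 25.7, 47.0 and 18.3 CPM with DMSO. In both groups B was highest and C lowest, and the groups overlapped. The log2 fold change was -0.34 ± 0.40 (edgeR adjusted p = 0.86), and it turned to 0.13 without DMSO B. In the GENCODE M21 annotation of GRCm38 Rgs16 shares 236 exonic bases, 10.1% of its own, with the antisense gene Gm28513, and the kit does not mark strand, so reads of the pair cannot be told apart there.

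Rgs3, an R4 gene for Gi and Gq subunits with more than 1 annotated start (chr4:62619672-62703019, plus strand), had 17.5, 36.5 and 0 counts with forskolin and 31, 52.5 and 6 with DMSO. This gave 1.74 ± 1.68 CPM against 3.94 ± 1.69 CPM, with overlapping groups. The log2 fold change of -1.06 ± 0.88 did not pass (edgeR adjusted p = 0.76), and its interval, -3.01 to 0.90, covers both directions. The deposited Rgs3 transcript, of 3719 bases, begins at the later annotated start. Exons that lie before that start are outside it, so the level given is that of this transcript.

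Among the R12 genes, Rgs10 was the only one whose groups stood apart. Rgs10, a small protein for Gi subunits best known from microglia (chr7:128373625-128418172, minus strand), was at 10.6, 7.81 and 11.7 CPM with forskolin and at 5.83, 5.27 and 6.10 CPM with DMSO. The lowest forskolin library was above the highest DMSO library. The mean was 10.03 ± 1.99 against 5.73 ± 0.425 CPM, a log2 fold change of 0.80 ± 0.38 that did not pass (unadjusted p = 0.0588, edgeR adjusted p = 0.446). Its 95% interval was -0.04 to 1.63.

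Rgs12, a large Gi and Go regulator that also carries Ras-binding, PDZ and GoLoco domains (chr5:34949448-35033593, plus strand), had the highest RGS counts. Levels were 101, 113 and 81.6 CPM with forskolin and 116, 123 and 99.6 CPM with DMSO. The groups overlapped, with a log2 fold change of -0.19 ± 0.14 (95% interval -0.51 to 0.13, edgeR adjusted p = 0.721). It shares 467 exonic bases, 5.5% of its own, with the antisense gene Gm43791. Rgs14, the relative with tandem Ras-binding domains and a GoLoco motif (chr13:55369732-55384687, plus strand), had no count in any forskolin library and 6, 3 and 0 counts in DMSO A, B and C, too few to pass the filter on low counts or to give a fold change. With no filter its adjusted p was 0.643.

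The RZ genes did not pass the test. Rgs19, also known as GAIP and first described as a partner of a Gi subunit (chr2:181688419-181693977, minus strand), was at 25.1, 23.9 and 13.99 CPM with forskolin and 33.3, 22.3 and 23.7 CPM with DMSO. The groups overlapped, and the log2 fold change was -0.30 ± 0.27 (95% interval -0.91 to 0.31, edgeR adjusted p = 0.793). Rgs17, a regulator of Gz and Gi (chr10:5825664-5922400, minus strand), had 17, 9 and 19.5 counts with forskolin and 24, 24 and 12 with DMSO. Forskolin C alone, at 7.77 CPM, exceeded every DMSO library, and the other forskolin libraries, at 1.77 and 0.836 CPM, were below them all. Its log2 fold change of -0.06 ± 0.89 changed sign when single libraries were left out, from -1.33 without forskolin C to 0.47 without forskolin B (edgeR adjusted p = 0.997 with all 6 libraries).

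**Figure D2:**
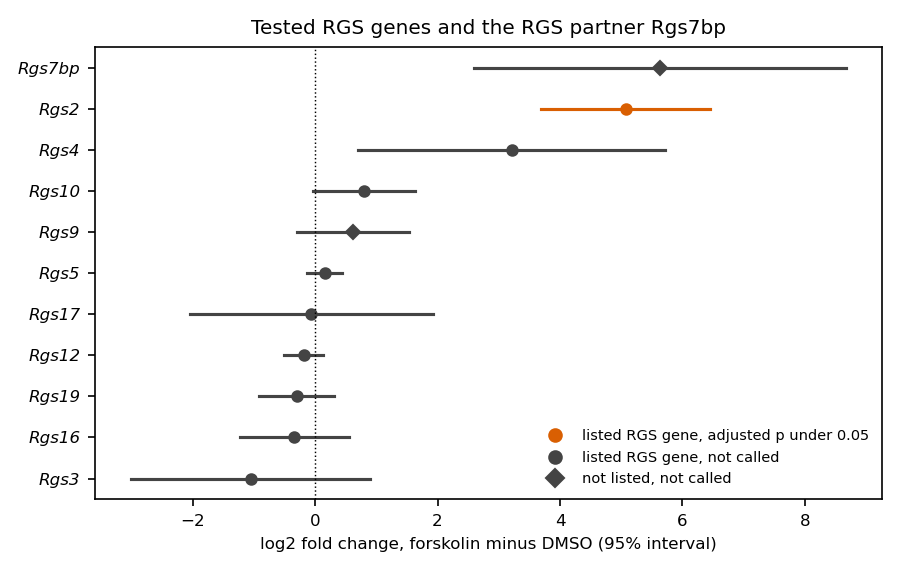
Fitted log2 fold change, forskolin minus DMSO, of the 9 tested RGS genes and of Rgs9 and the RGS partner Rgs7bp, with 95% intervals as lines. Rgs2, in orange, was the one gene called, and the intervals of Rgs4 and Rgs7bp lay above 0 without passing the adjusted test.

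Across the settings tried, Rgs2 was called in 19 of 19 alternatives, with a largest adjusted p of 0.0132, and its log2 fold change ran from 4.43 to 6.35. Rgs4 was called in 1 of 18 alternatives that tested it, with log2 fold changes of 2.74 to 4.80. Rgs10 was called in 0 of 19, with 0.69 to 0.96. For Rgs5 (0.09 to 0.21), Rgs12 (-0.30 to -0.08), Rgs19 (-0.44 to -0.10) and Rgs3 (-1.82 to -0.63) the log2 fold change kept its sign and none of these alternatives gave a call.

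**Figure D3:**
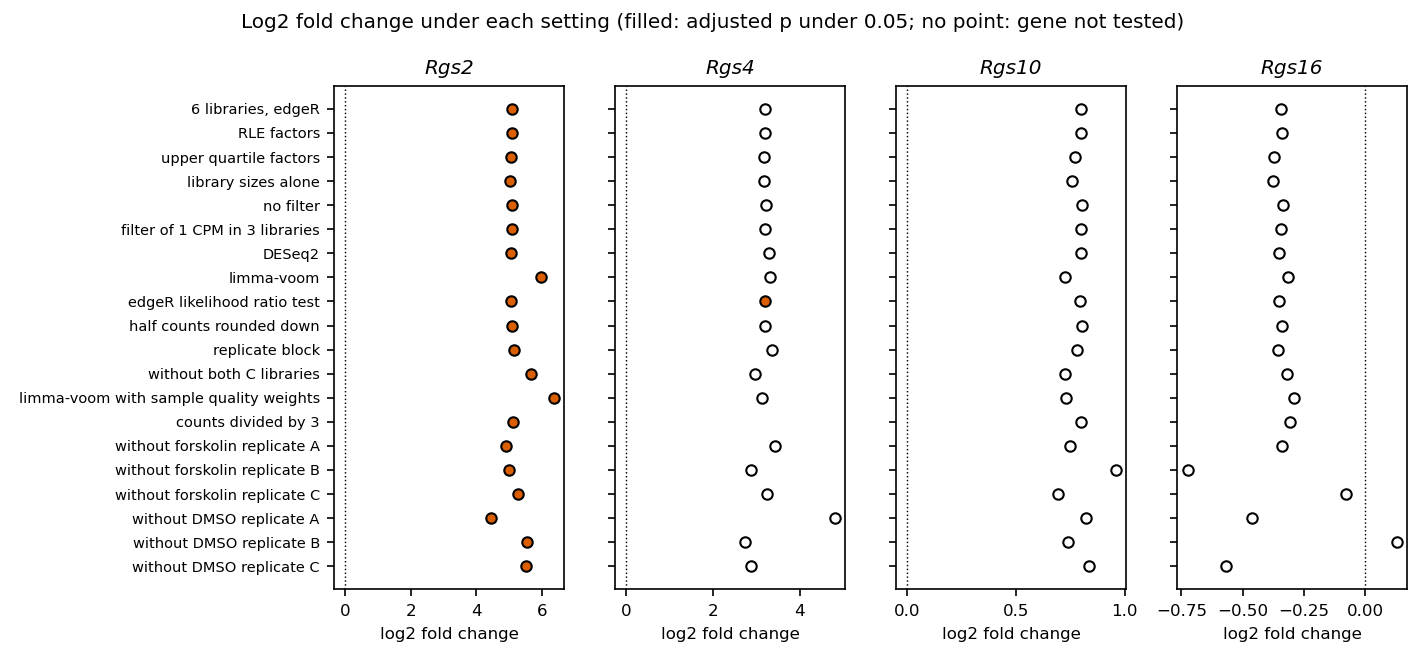
Log2 fold change of Rgs2, Rgs4, Rgs10 and Rgs16 with all 6 libraries (top line) and under each alternative, each panel with its own axis. Filled points have an adjusted p under 0.05, which holds for Rgs2 on every line and for Rgs4 under the likelihood ratio test, and the dotted line marks 0, which Rgs16 crosses without DMSO B.

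Levels of different genes were compared per length, as CPM per kilobase of the deposited transcript. With DMSO the order began with Rgs12 at 20.7 ± 2.20, Rgs19 at 17.5 ± 3.96, Rgs5 at 16.5 ± 1.28 and Rgs16 at 13.02 ± 6.402 CPM per kilobase, and each of these 4 overlapped its neighbour. Rgs10 followed at 6.61 ± 0.490 and Rgs3 at 1.06 ± 0.455 CPM per kilobase, each below all libraries of the gene before it. Rgs17, Rgs2, Rgs14 and Rgs4 were at 0.411 CPM per kilobase or less on average, with Rgs2 at 0.361 ± 0.341 in place 10 of the 21 RGS genes. With forskolin the order was Rgs5 (18.4 ± 0.609), Rgs12 (18.1 ± 2.91), Rgs19 (13.9 ± 4.05), Rgs10 (11.6 ± 2.30), Rgs2 (10.5 ± 2.68) and Rgs16 (10.1 ± 4.97 CPM per kilobase), neighbours that overlapped, so Rgs2 stood in place 5. A clear gap separated these 6 from Rgs9 at 1.12 and Rgs4 at 0.845 ± 0.305 CPM per kilobase.

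Summed over all 21 genes the per-length RGS level was 82.3, 84.8 and 69.0 in DMSO A, B and C and 91.4, 95.2 and 71.9 CPM per kilobase in forskolin A, B and C, with overlapping groups. Rgs2 supplied 0, 0.478 and 0.981% of that sum in the DMSO libraries and 13.8, 12.04 and 10.4% in the forskolin libraries. The share of Rgs12 was 21.0% ± 0.790 with forskolin against 26.3% ± 0.405 with DMSO, while its own level did not pass the test. Rgs5 held 21.0% ± 1.153 with DMSO and 21.7% ± 3.67 with forskolin. By subfamily, counting listed genes only, R4 genes supplied 35.0 to 45.7% with DMSO and 44.4 to 49.7% with forskolin. Listed R12 genes supplied 35.0% ± 1.44 and 34.8% ± 4.25, and listed RZ genes 22.9% ± 4.81 and 16.5% ± 2.13. The unlisted RGS genes, not split by subfamily, supplied 3.00% ± 1.63 with DMSO and 2.06% ± 0.239 with forskolin. Without scaling for length, the mean Rgs2 share was 0.439% with DMSO and 11.3% with forskolin, and that of Rgs12 43.3% and 35.4%. Rgs5 then had 25.9% and 27.5%, and Rgs16 11.4% and 8.20%. The shares of Rgs10 went from 8.50% and 13.8% per length to 2.23% and 3.73%. Those of Rgs19 went from 22.4% and 15.9% to 10.2% and 7.46%. The order of the genes therefore depends on the deposited length. These shares are descriptions and were not tested.

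**Figure D4:**
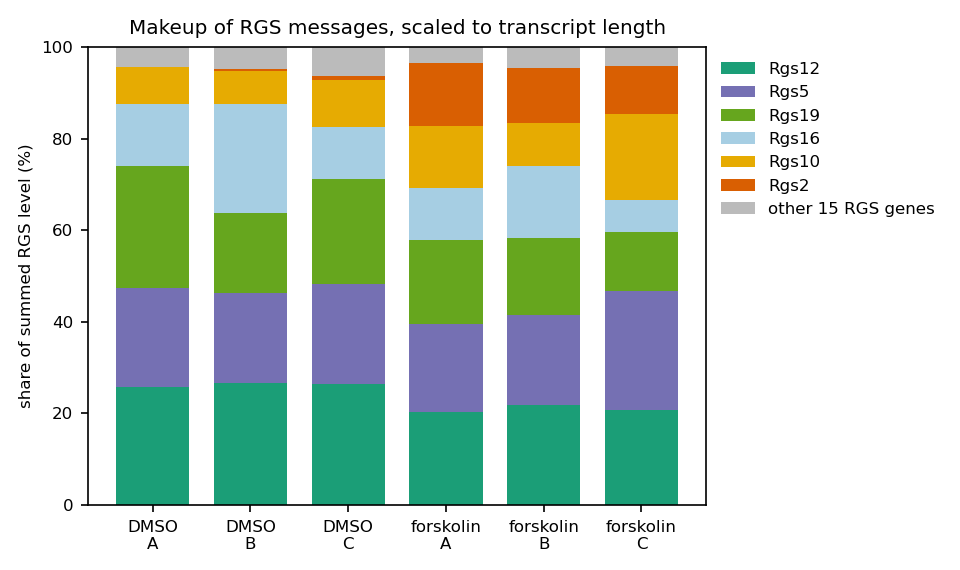
Share of each RGS gene in the summed per-length RGS level (%), one bar per library, with the 15 least abundant genes pooled. The orange segment, Rgs2, is at most 0.981% in the DMSO bars and 10.4 to 13.8% in the forskolin bars.

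Rgs2 stands in a row of RGS genes on chromosome 1, and its neighbours were silent or nearly so. Rgs2, Rgs13, Rgs1, Rgs21 and Rgs18 span 776 kb (mm10, chr1:143999338-144775427), and over the 6 libraries together they had 810.5, 3, 3, 0 and 0 counts. Rgs13 and Rgs1, regulators best known from lymphocytes, had their 3 counts each in a DMSO library. Elsewhere on the chromosome, Rgs8 had 11 counts at a distance of 42.7 kb from Rgs16 with 1331, and Rgs4 had 64.5 counts at 45.7 kb from Rgs5 with 3065.5.

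Of the RGS genes outside the list, Rgs9 was the only one tested. Rgs9, an R7 protein best known from photoreceptors and striatum, was at 8.51 ± 2.96 CPM with forskolin and 5.71 ± 0.566 with DMSO (log2 fold change 0.61 ± 0.41, edgeR adjusted p = 0.662). Too few counts were seen for Rgs20, with 8, 3 and 0 counts in the forskolin libraries and 4.5, 10 and 6 in the DMSO libraries. Rgs7 had 6.5 counts with forskolin and 14 with DMSO in all, Rgs11 had 11 and 6, Rgs8 had 11 and 0, Rgs22 had 0 and 6.5, and Rgs6 had 1 and 0. Rgs18, Rgs21 and the related Rgsl1 had none.

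Rgs7bp, the membrane anchor of R7 proteins, came near the threshold. It had 23, 18 and 15.5 counts in the forskolin libraries and 0, 1 and 0 in the DMSO libraries, or 2.40, 1.67 and 6.22 CPM against 0, 0.101 and 0. Rgs7bp passed the filter on low counts through its forskolin libraries. Its log2 fold change of 5.63 ± 1.37 rests on a single DMSO count and did not pass (edgeR adjusted p = 0.0644). It ran from 4.21 by limma-voom to 7.44 without DMSO B, the library with that count, where the adjusted p was 0.274. Rgs7bp was called in 5 of 18 alternatives, among them DESeq2 (adjusted p = 0.0034) and the fit without both C libraries (adjusted p = 0.0351). Its retinal relative Rgs9bp had 6 counts in each group.

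The G proteins and receptors on which RGS proteins act were followed in lists of the wider pathway. Among alpha subunits, 1 of 12 tested rose and none fell, against 2.22% and 0.572% of all tested genes. Their median log2 fold change was 0.13. The riser was Gna14, a Gq-class subunit, at 8.23, 9.39 and 6.996 CPM with forskolin and 0.875, 0.304 and 2.03 CPM with DMSO. The groups were well apart, and the log2 fold change was 3.15 ± 0.71 (edgeR adjusted p = 0.0447). Gna14 passed the filter on low counts through its forskolin libraries. It was no longer called with library sizes alone as the scaling (adjusted p = 0.052), nor when forskolin A (0.227) or B (0.249) or DMSO A (0.176) or B (0.15) was left out. Its log2 fold change was 3.95 without both C libraries and 2.60 without DMSO B. Gna14 supplied 0.516% ± 0.475 of the per-length level of the Gq class with DMSO and 3.43% ± 0.265 with forskolin. The whole class summed to 65.0 ± 7.27 and 70.7 ± 4.91 CPM per kilobase, and the Gi and Go class to 284 ± 23.9 and 305 ± 17.6. Gnas, the Gs subunit through which receptors activate adenylyl cyclase, had a log2 fold change of 0.19 ± 0.20 (adjusted p = 0.845), and Gnai3, a Gi subunit, 0.13 ± 0.14 (adjusted p = 0.853).

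Receptors that signal through Gq or Gi held more calls. Of 23 tested, 4 rose, 1 fell and 18 did not pass, with a median log2 fold change of 0.25. Over all tested genes 2.22% were called higher and 0.572% lower. An unadjusted p under 0.05 was reached by 9 of the 23 receptors and by 1477 of all 12233 genes. The list was chosen with earlier results of these data known, so its share of calls is a description and was not tested. Adra2b, an alpha-2 adrenergic receptor coupled to Gi, was at 140, 150 and 56.7 CPM with forskolin and 6.71, 5.67 and 8.13 CPM with DMSO. Its log2 fold change was 4.15 ± 0.36 (edgeR adjusted p = 0.000135), with forskolin C well under A and B yet far over every DMSO library. S1pr3, a sphingosine 1-phosphate receptor that couples to Gq, Gi and G12 proteins, stood at 410 to 443 CPM with forskolin and 145 to 189 CPM with DMSO (log2 fold change 1.32 ± 0.12, adjusted p = 0.000195). Ednrb, the endothelin B receptor, was at 241 to 312 CPM against 163 to 165 CPM (log2 fold change 0.75 ± 0.12, adjusted p = 0.00475). Htr2a, the Gq-coupled serotonin receptor, was the gene that fell, to 52.9 to 62.8 CPM from 105 to 118 CPM (log2 fold change -0.90 ± 0.13, adjusted p = 0.0027).
The remaining riser, Ednra, the endothelin A receptor, is named after its values were seen, to complete the count. It went from 19.4 ± 4.63 to 48.6 ± 12.1 CPM, a log2 fold change of 1.32 ± 0.25 (adjusted p = 0.0177), and leaving out 1 library ended the call for forskolin A (adjusted p = 0.1) and B (0.106) and for DMSO A (0.0854) and B (0.0554). Without both C libraries 25 of these receptors were tested, 6 were higher and 2 lower, in a fit that called 5.86% of all 12597 genes tested higher and 3.9% lower.

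**Figure D5:**
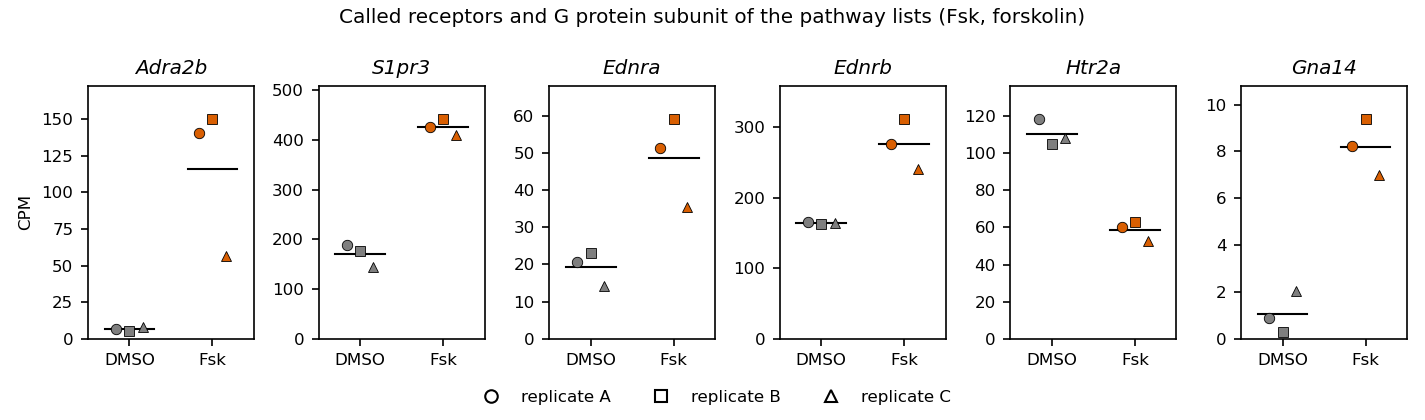
CPM per library of the 5 called receptors and of Gna14, each panel with its own axis from 0, with replicates A, B and C as circles, squares and triangles and bars for the group means (Fsk, forskolin). Htr2a is lower with forskolin, at 52.9 to 62.8 CPM, and the other 5 are higher, with no overlap in any panel.

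The rest of the pathway gave no call with all 6 libraries. For the counts at an unadjusted p under 0.05 given here, the number over all 12233 tested genes was 1477. None of the 14 tested proteins that carry an RGS-like domain (RhoGEFs, receptor kinases, axins and sorting nexins) was called, and none had an unadjusted p under 0.05 (median log2 fold change 0.02). Arhgef12, a RhoGEF that links G12-class subunits to RhoA, lay at 354 to 374 CPM with forskolin, below the 396 to 467 CPM of the DMSO libraries, with a log2 fold change of -0.23 ± 0.11 that did not pass (edgeR adjusted p = 0.474). Axin1, a scaffold of the beta-catenin destruction complex, was at 0.03 ± 0.13 (log2 fold change, adjusted p = 0.9751). Beta and gamma subunits had 0 calls among 11 tested and 1 at an unadjusted p under 0.05. Their most abundant members, Gnb1 and Gnb2, were at 0.09 ± 0.15 and -0.08 ± 0.12 on the log2 scale (adjusted p = 0.899 and 0.889). The 11 tested effectors downstream of Gq gave 0 calls and 0 unadjusted p under 0.05, with Itpr1, an IP3 receptor, at 0.12 ± 0.18 and Prkcd, a protein kinase C, at -0.13 ± 0.19 (adjusted p = 0.894 and 0.888). Among GoLoco proteins and other G protein modulators, 0 of 11 were called and 1 had an unadjusted p under 0.05, with Nucb1 at 0.06 ± 0.11 and Ccdc88a, also called Girdin, at -0.01 ± 0.20 (adjusted p = 0.924 and 0.998). Gpsm1, a Gi-binding GoLoco protein named here because it was called in other fits, had a log2 fold change of 0.93 (adjusted p = 0.0943) and passed without both C libraries (0.77, adjusted p = 0.00168).

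Rgs4, Rgs5 and Rgs16 are degraded as proteins by the Arg/Cys N-degron pathway, in which the cysteine exposed at their start is oxidised and arginylated. Of the 10 tested enzymes of that pathway 0 were called (median log2 fold change -0.10). An unadjusted p under 0.05 was reached by 2 of them and by 1477 of all 12233 tested genes. The ubiquitin ligase Ubr4 was at 0.13 ± 0.13 (log2 fold change, edgeR adjusted p = 0.823). Without both C libraries, where 3.9% of all tested genes were called lower, 2 of the 10 were lower, the arginyltransferase Ate1 (log2 fold change -0.37, adjusted p = 0.00719) and the ligase Ubr1 (-0.33, adjusted p = 0.0273). RNA counts say nothing about the protein levels.

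The genes whose profile over the 6 libraries was nearest to that of Rgs2 were Nr4a3, Rsad2 and Il11, out of 10538 genes of at least 4 CPM on average. Likeness was the root-mean-square difference of log2(CPM + 0.5), centred on each gene's mean, and came to 0.576 for Nr4a3, 0.644 for Rsad2 and 0.771 for Il11. Nr4a3, an orphan nuclear receptor, went from 25.2 ± 6.60 to 666 ± 5.55 CPM. Rsad2, the interferon-stimulated gene that encodes viperin, went from 4.26 ± 1.41 to 58.9 ± 9.20 CPM, and Il11, the cytokine interleukin 11, from 8.85 ± 2.90 to 108 ± 18.8 CPM. The measure ranks genes by size and direction over the same 6 libraries and is a description.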

How the data were processed

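The authors deposited estimated counts over exons per gene for 6 libraries of polyadenylated RNA. The submitters' processing notes name STAR, HOMER and mm10, without versions. Values come in steps of 0.5 and were rounded to whole numbers here, and the kit did not record strand. The deposited transcript length served for CPM per kilobase. Counts were analysed in R 4.3.3 with edgeR 4.0.16: after filterByExpr (12233 genes left) and TMM scaling, a robust quasi-likelihood fit tested the forskolin group against the DMSO group. P-values were adjusted by Benjamini and Hochberg over all tested genes. Summed cell type markers were divided by column totals instead. An error is the SD of a group's 3 libraries where it follows a level, and the fitted SE where it follows a log2 fold change.

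The members and lists were chosen with earlier results of these data known. Named were all listed RGS genes and every other RGS gene with counts. Of each pathway list up to 4 called genes by p were named and, where fewer than 2 were called, the 2 most abundant others, of which 1 is not reported here. For called RGS genes the 3 nearest profiles were named. Alternatives were other scalings and filters, DESeq2 1.42.0, limma 3.58.1 (voom, with and without sample quality weights), edgeR's likelihood ratio test, values ending in 0.5 rounded down, a block for the replicate letter, single libraries left out in turn, both C libraries left out and, added after the data were seen, counts divided by 3. The planned comparison of protein sequences was not analysed here.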

Additional observations from a re-analysis of the deposited data

How the results depend on the processing

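Over all genes 342 were called with all 6 libraries, 620 with no filter on low counts, 553 by DESeq2, 648 by the likelihood ratio test, 1229 without both C libraries, 984 with sample quality weights and 185 to 485 with 1 library left out, lowest without DMSO B. The count of listed RGS genes called higher was 1 throughout, except for 2 by the likelihood ratio test, and 0 were called lower. The labels do not say that replicate letters pair the libraries. Deviations from the group mean correlated over genes at 0.0476, 0.133 and 0.150 for A, B and C; B and C were nearest to their own letter, while forskolin A was nearer to DMSO B, at 0.103. The replicate block gave 649 calls, changed no RGS call and added Gpsm1 (adjusted p = 0.014) among the pathway lists. Log2 fold changes that changed sign belonged to genes that were not called: Axin1 (-0.00204 with upper quartile factors, -0.00357 with library sizes alone), Gnb1 (-0.031 without both C libraries) and Prkcd (0.016 without both C libraries, 0.00216 with quality weights), and, with 1 library left out, Axin1 (-0.065 to 0.15), Gnb1 (-0.035 to 0.16), Prkcd (-0.27 to 0.038), Rgs17 (-1.33 to 0.47), Ccdc88a (-0.25 to 0.14), Gnas (-0.048 to 0.34), Rgs16 (-0.72 to 0.13), Gnb2 (-0.15 to 0.00712) and Itpr1 (-0.036 to 0.26). The causes were not tested. Counts divided by 3 left 6 listed RGS genes tested, without Rgs3, Rgs4 and Rgs17. With no filter, 9 further RGS genes, Rgs14 included, were tested, and 0 were called or had an unadjusted p under 0.05 (lowest edgeR adjusted p = 0.643). By counting error alone a gene at 0 can hold up to 0.279 to 1.17 CPM, so changes within that limit were not detectable at this depth. The limit leaves out the coarse steps of low counts in the C libraries.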
